A study of Mus musculus with 6 samples.

Results

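The NR4A family of orphan nuclear receptors was followed in prefrontal cortex (PFC) RNA through its 3 genes, Nr4a1, Nr4a2 and Nr4a3, among 54429 genes listed and 20409 tested. The family was taken whole by gene symbol, but it was chosen by measured values: its normalized levels and fold changes in these same 3 groups of libraries. Its levels and fold changes are therefore given as a description, with no test. Mice aged 6 months were compared in 3 groups, with 2 libraries each. WT mice of the C57BL/6 x C3H background and PS19(P301S) mice, called Tau here, were given vehicle, and a second group of Tau mice was given UNC0642, an inhibitor of the histone methyltransferases EHMT1 and EHMT2. UNC0642 was injected at 1 mg/kg once daily for 3 days, vehicle was saline with DMSO, and tissue was studied 24 h after the last injection. Tau mice carry a transgene for mutant human tau on the same mixed background, and mice of both sexes were used. In PS19 mice the transgene is driven by the mouse prion promoter, and the endogenous mouse tau gene is intact.

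NR4A receptors are transcription factors that are controlled mainly by how much of them is made rather than by a ligand. Their genes are rapid-response genes: in neurons, calcium and cAMP signals act through CREB and related factors to switch them on without new protein synthesis. Each receptor can bind DNA as a monomer, and Nr4a1 and Nr4a2 can also pair with the retinoid X receptors. Nr4a1 (also called Nur77) is a broad activity-regulated gene of forebrain neurons with roles in metabolism and in spine density. Nr4a2 (Nurr1) is needed for midbrain dopamine neurons and marks claustrum and deep cortical neurons. Nr4a3 (Nor1) is the member least studied in cortex. EHMT1 and EHMT2 place the repressive H3K9me2 mark on histones.

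Libraries held 17005664 to 28972176 counts. The lowest count of a member, 147 for Nr4a2 in WT replicate 2, was well above the floor of 3 counts. Expression is given as CPM, a gene's count relative to the library's total after that total was scaled by TMM. Several facts of the libraries bear on what follows. The prion gene Prnp, whose promoter drives the transgene, was at 1652 CPM in the library labelled WT replicate 1 and at 873 CPM in the library labelled WT replicate 2. In the Tau and UNC0642 libraries Prnp was at 1470 to 1694 CPM, so the library labelled WT replicate 1 lay within their range. Mapt, the mouse tau gene, was at 576 and 449 CPM in the WT libraries and at 571 to 614 CPM in the others, with the same library in that range. The genotype of this mouse cannot be settled from these counts. Comparisons of the NR4A genes with WT are given with and without this library, but for many other genes and lists only with it included. By Xist and Ddx3y, WT replicate 1 and both UNC0642 libraries were male, and WT replicate 2 and both Tau libraries were female. UNC0642 treatment and sex therefore cannot be told apart in the comparison of the Tau groups. Markers of cortical excitatory neurons, with a summed level of 1228 to 1445 CPM over 6 genes, were present in every library. In bulk tissue, more RNA per cell and more cells of a type cannot be told apart.

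The stretch before a RefSeq transcript start of each gene is shown first, since these genes are read by signals that end at their promoters. The motif searched was the core of the cAMP response element (CRE), which CREB family proteins bind: TGACG, or CGTCA when it lies on the other strand. Each core is in capitals. Sequences are from RefSeq on GRCm38.p6, which is the mm10 build named in the submitters' processing notes. The first lies at chr15:101266596-101266845 on the plus strand, the next at chr2:57124004-57124253 on the minus strand, and the last at chr4:48045055-48045152 on the plus strand.
Nr4a1: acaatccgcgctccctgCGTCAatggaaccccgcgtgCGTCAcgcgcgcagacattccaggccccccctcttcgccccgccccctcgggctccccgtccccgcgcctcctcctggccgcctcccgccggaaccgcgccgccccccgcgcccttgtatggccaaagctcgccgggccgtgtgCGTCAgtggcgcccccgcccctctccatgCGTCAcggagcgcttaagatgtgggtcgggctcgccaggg
Nr4a2: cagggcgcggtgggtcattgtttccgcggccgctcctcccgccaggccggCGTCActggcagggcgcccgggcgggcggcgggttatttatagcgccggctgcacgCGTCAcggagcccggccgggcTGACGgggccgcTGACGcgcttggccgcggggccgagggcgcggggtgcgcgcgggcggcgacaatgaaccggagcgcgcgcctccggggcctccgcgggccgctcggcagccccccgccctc
Nr4a3: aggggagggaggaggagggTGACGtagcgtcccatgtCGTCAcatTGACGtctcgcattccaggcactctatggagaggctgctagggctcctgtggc
The Nr4a1 stretch precedes an internal start and lies within the annotated span of the gene, which begins at 101254269 with a longer transcript. The window searched was the 250 bases before the RefSeq start, and all 3 genes held 4 CRE cores in it. Of 32851 RefSeq promoter windows of the same length, 17.8% held at least 1 core and 45 windows, or 0.137%, held 4 or more. The cores began at -233, -213, -69 and -40 from the start in Nr4a1 and at -200, -144, -123 and -111 in Nr4a2. In Nr4a3 they began at -231, -213, -205 and -147, and the last of these lies inside annotated Nr4a3 transcripts and is not printed. The windows were rich in G and C, at 74.4% for Nr4a1, 80% for Nr4a2 and 63.6% for Nr4a3, and the share of all windows was not matched on this. None of the 3 held the full CRE, TGACGTCA, which 1.55% of windows held. None held the NR4A monomer site AAAGGTCA, found in 1.34% of windows, or a CArG box, the site of serum response factor, found in 1.47%. AAAGGTCA and TATAAA were, like the CRE core, searched on both strands. The letters TATAAA were found in Nr4a2 alone of the 3, and in 12.4% of windows. In Nr4a2 they lie on the other strand, and read tttata in the printed stretch. Of 22 other rapid-response genes, 16 had a window, 10 of these held a core, and the most that any of them held was 3, in Dusp1 and Homer1. These are letters in a window and no evidence of binding.

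Nr4a1 spans 101254269 to 101274795 on chromosome 15, with 3509 bases of exon over 4 transcripts. It was at 64.9 and 55.1 CPM in the WT libraries, 77.4 and 74.1 CPM in the Tau libraries, and 81.4 and 89.2 CPM in the UNC0642 libraries. Every Tau library was above both WT libraries and every UNC0642 library was above both Tau libraries. The group means were 59.98 ± 6.94, 75.8 ± 2.31 and 85.3 ± 5.50 CPM (SD, n = 2 each). The log2 fold change was 0.34 ± 0.0997 (SE), or 1.26-fold, between Tau and WT mice, 0.17 ± 0.0995 between UNC0642-treated and untreated Tau mice, and 0.51 ± 0.0998 between UNC0642-treated Tau and WT mice. This was the smallest difference from WT of the 3 genes. The lowest Tau library was 1.14 times the highest WT library, and the lowest UNC0642 library only 1.05 times the highest Tau library.

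Nr4a2 lies on the minus strand of chromosome 2 from 57106830 to 57124003, with 4059 bases of exon over 6 transcripts. It was at 8.003 and 5.74 CPM in the WT libraries, 11.1 and 13.1 CPM in the Tau libraries, and 11.9 and 12.5 CPM in the UNC0642 libraries. Tau and UNC0642 libraries lay above WT and overlapped each other. The means were 6.87 ± 1.60, 12.1 ± 1.39 and 12.2 ± 0.443 CPM (SD, n = 2 each). The log2 fold change from WT was 0.81 ± 0.187 (SE), or 1.75-fold, in Tau mice and 0.83 ± 0.187 after UNC0642. Between the Tau groups it was 0.023 ± 0.183, so the neighbouring levels did not differ beyond their spread.

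Nr4a3 spans 48045153 to 48086447 on chromosome 4, with 5987 bases of exon over 4 transcripts. It was at 22.9 and 20.6 CPM in the WT libraries, 42.7 and 41.4 CPM in the Tau libraries, and 43.8 and 48.7 CPM in the UNC0642 libraries. The lowest Tau library was 1.81 times the highest WT library, the widest gap of the 3 genes. The means were 21.7 ± 1.61, 42.04 ± 0.916 and 46.2 ± 3.42 CPM (SD, n = 2 each). The log2 fold change from WT was 0.95 ± 0.107 (SE), or 1.94-fold, in Tau mice and 1.09 ± 0.107, or 2.13-fold, after UNC0642. Between the Tau groups it was 0.14 ± 0.104, with the lowest UNC0642 library 1.03 times the highest Tau library. That step was smaller than the 1.11-fold distance between the UNC0642 libraries themselves. No other annotated gene overlaps any of the 3 genes.

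**Figure D1:**
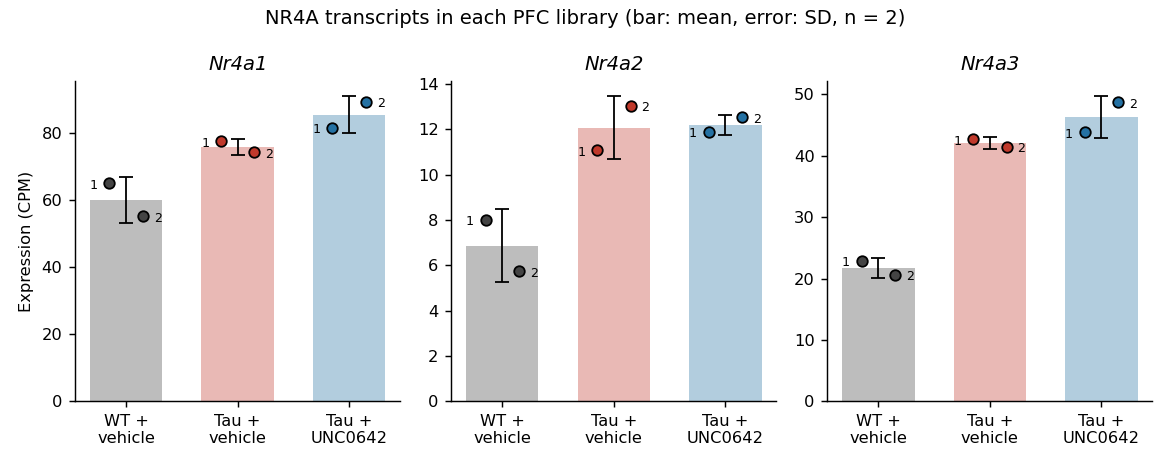
Expression of Nr4a1, Nr4a2 and Nr4a3 in CPM (vertical axes, from 0) in each group, with 1 point per library numbered by replicate, bars at the mean and error bars for the SD of 2 libraries. The WT points lie below all others in each panel, and the Tau and UNC0642 points overlap for Nr4a2 and lie close together for the other genes.

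The order of the group means was the same for all 3 genes, with WT lowest and UNC0642-treated Tau highest. For Nr4a2, however, the means of the untreated and treated Tau groups were 12.1 and 12.2 CPM, and their libraries overlapped. The study took 1.2-fold with an unadjusted p under 0.05 as its limit for a call. By this rule all 3 members were called higher in Tau than in WT mice, where 3.72% of tested genes were called higher and 6.1% lower. Called by edgeR's Benjamini-Hochberg adjusted p, which 0.157% of genes passed, was Nr4a3 alone. Both Tau libraries were above both WT libraries in 21.9% of genes. None of the 3 members was called between UNC0642-treated and untreated Tau mice, where 3.73% of genes were called higher, 3.95% lower and 0.0196% by adjusted p. In that comparison 20.4% of genes had both UNC0642 libraries above both Tau libraries, as Nr4a1 and Nr4a3 had. All 3 were called higher in UNC0642-treated Tau than in WT mice, where 3.77% of genes were called higher, 5.69% lower and 0.216% by adjusted p, again Nr4a3 alone of the 3, and where 22.1% had no overlap in this direction. Which members passed the adjusted threshold between UNC0642-treated Tau and WT mice changed with the library left out. Without UNC0642 replicate 2 the log2 fold changes of Nr4a1, Nr4a2 and Nr4a3 there were 0.44, 0.79 and 1.01. Without the library labelled WT replicate 1 they were 0.63, 1.09 and 1.17. Since the members were chosen for these contrasts, the calls add nothing to the values. The comparisons share libraries: both with Tau use the same Tau mice, and both with WT the same WT mice.

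Without the library labelled WT replicate 1, the comparison of Tau with WT is between females alone. The log2 fold changes were then 0.46 for Nr4a1, 1.06 for Nr4a2 and 1.03 for Nr4a3. Without WT replicate 2 they were 0.23, 0.59 and 0.88, and Nr4a1 was no longer called. Among males alone, UNC0642-treated Tau mice and the library labelled WT replicate 1 differed by 0.40, 0.61 and 1.02. The direction from WT was the same with either WT library. No comparison within a sex was possible between the Tau groups. With a term for sex in the fit, the log2 fold changes between the Tau groups were -0.066 for Nr4a1, -0.45 for Nr4a2 and -0.014 for Nr4a3. This term rests on the difference between the WT libraries, and so also on the library whose genotype is in doubt.

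To compare the genes with each other, CPM was divided by the exon length in kilobases (RPKM). On this scale Nr4a1 was the most abundant member, at 17.1 ± 1.98 in WT, 21.6 ± 0.657 in Tau and 24.3 ± 1.57 in UNC0642-treated Tau mice (SD, n = 2). Nr4a3 was at 3.63 ± 0.269, 7.02 ± 0.153 and 7.72 ± 0.572, and Nr4a2 was at 1.69 ± 0.394, 2.97 ± 0.343 and 3.01 ± 0.109. The combined level of the family was 24.3 and 20.5 in the WT libraries, 31.9 and 31.3 in the Tau libraries, and 33.4 and 36.6 in the UNC0642 libraries. Nr4a1 made up 76.2% and 76.4% of it in the WT libraries and 67.6% to 69.4% in the others. Nr4a3 made up 15.7% and 16.7% in the WT libraries and 21.9% to 22.3% in the others. The share of Nr4a2 ranged from 6.88% to 8.12% in WT and from 8.43% to 10.3% in the other libraries. The make-up of the family thus differed between WT and both Tau groups, and was nearly the same in the Tau groups.

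**Figure D2:**
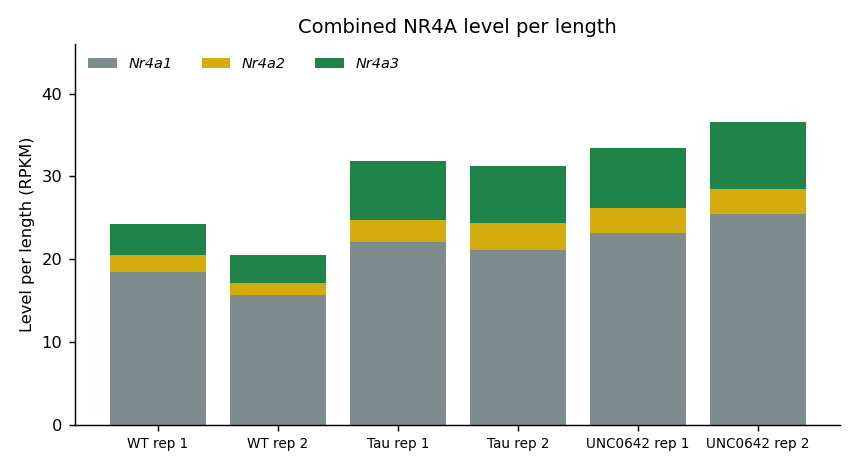
Combined NR4A level per length (vertical axis, RPKM) in each of the 6 libraries, stacked by gene. The stack is 20.5 to 24.3 in the WT libraries and 31.3 to 36.6 in the Tau and UNC0642 libraries, and the Nr4a3 layer is 15.7% to 16.7% of it in WT and 21.9% to 22.3% in the others.

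Among 38 tested nuclear receptor genes ranked by the same measure, Nr4a1 was the 4th most abundant in every group. Above it were Thra, the thyroid hormone receptor alpha, the clock repressor Nr1d2, and Nr3c1, the glucocorticoid receptor. Nr4a3 ranked 19 in WT, 15 in Tau and 12 in UNC0642-treated Tau mice, and Nr4a2 ranked 25, 22 and 22. Of 46 other nuclear receptors, 35 were tested. In Tau against WT mice 4 were called higher and 2 lower, with a median log2 fold change of 0.045 over the 35, against -0.00011 over all genes. The retinoic acid receptor Rara, at 9.03 and 8.44 CPM in WT and 15.4 and 15.5 CPM in Tau libraries, rose by 0.82 ± 0.139 (SE; adjusted p = 0.0666 by edgeR). The others called higher were Nr1d2, Esrra and Esrrg, at log2 fold changes of 0.41, 0.28 and 0.38. Called lower were Vdr, a gene of very low counts, and Nr2f1. Without Tau replicate 2, 2 of the 35 were called higher and none lower. Between the Tau groups none was called higher and 6 were called lower after UNC0642: Nr1d1, Nr1d2, Rxrg, Nr2f2, Esrrb and Esrrg. With the term for sex, 2 were called higher and 2 lower. The largest of these falls in an abundant gene was in the clock gene Nr1d1, at 46.3 and 36.1 CPM in Tau and 24.3 and 23.1 CPM in UNC0642 libraries, a log2 fold change of -0.80 ± 0.135 (adjusted p = 0.144). With all 6 libraries in the fit, none of the 35 passed the adjusted threshold in any comparison. Between UNC0642-treated Tau and WT mice this changed with the library left out.

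**Figure D3:**
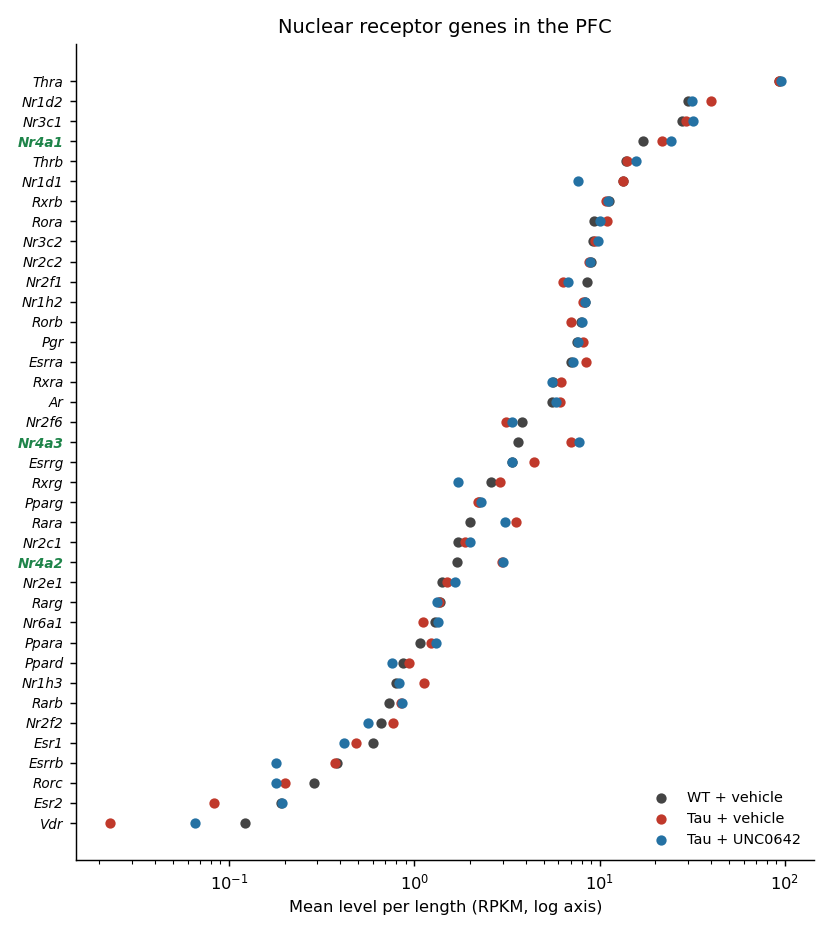
Mean level of each of 38 nuclear receptor genes in 3 groups (horizontal log axis, RPKM), ordered by the WT level, with the NR4A names in green. Nr4a1 is 4th from the top in every group, and the Nr4a3 and Nr4a2 points of both Tau groups lie to the right of their WT points.

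NR4A genes belong to a wider set of genes that neurons switch on within minutes to hours of activity, and 22 others of that kind were followed. This and the other gene lists were chosen with earlier results of these data known, so their counts and p-values are a description. Over all tested genes 3.72% were called higher and 6.1% lower in Tau against WT mice, the shares to set beside each list. Of the 22 genes, 9 were called higher and 2 lower, with a median log2 fold change of 0.23. Transcription factors of the EGR family were among them. Egr1 was at 73.6 and 80.7 CPM in WT and at 145 and 116 CPM in Tau libraries, a log2 fold change of 0.76 ± 0.120 (SE; adjusted p = 0.0468 by edgeR). Egr2 had 0.84 ± 0.213 (adjusted p = 0.216). Arc, which acts at synapses and trims AMPA receptors, was at 231 and 175 CPM in WT and at 333 and 370 CPM in Tau libraries, a log2 fold change of 0.79 ± 0.117 (adjusted p = 0.0416). Ptgs2, the inducible cyclooxygenase, and Ier5 also passed the adjusted threshold, at 0.71 and 0.52. Sik1, a kinase that restrains the CREB coactivators, had 0.69 ± 0.145 (adjusted p = 0.152). Fosl2, Dusp6 and Homer1 were called higher at 0.47, 0.45 and 0.38. Called lower were Btg2, at -1.07 ± 0.171 (adjusted p = 0.0529), and Ier2, at -0.50 ± 0.203 (adjusted p = 0.371). Fos itself had 0.070 ± 0.246, with 45.8 CPM in WT replicate 1 and 23.2 CPM in WT replicate 2, so that its WT libraries enclosed both Tau libraries. Npas4, a factor that answers selectively to calcium, had -0.62 ± 0.282 and was not called. Without the library labelled WT replicate 1, 15 of the 22 were called higher and 1 lower. The number past the adjusted threshold in this comparison ranged from 0, without either UNC0642 library, to 6, without WT replicate 2.

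Between UNC0642-treated and untreated Tau mice no NR4A gene was called. Of the 22, 12 were called higher and none lower, with a median log2 fold change of 0.36 against -0.0023 over all genes. Over all tested genes 3.73% were called higher there and 3.95% lower. Homer1, which scaffolds metabotropic glutamate receptors, was at 479 and 483 CPM in Tau and at 803 and 868 CPM in UNC0642 libraries. Its log2 fold change was 0.80 ± 0.0740 (SE; adjusted p = 0.00573 by edgeR), and it alone of the 22 passed the adjusted threshold, which 4 of them passed without either WT library and none without UNC0642 replicate 2. Egr2 rose from 13.3 and 13.5 CPM to 28.2 and 24.7 CPM, or by 0.98 ± 0.204 (adjusted p = 0.255). Arc rose to 536 and 553 CPM, or by 0.63 ± 0.116 (adjusted p = 0.171). Fosl2, Fos, Fosb and Junb, subunits of the AP-1 factor, were called higher at 0.65, 0.73, 0.72 and 0.41. Btg2, Egr3, Ptgs2, Nptx2 and Dusp6 were called higher at 0.41, 0.37, 0.36, 0.28 and 0.27. Egr1, Sik1 and Ier5, which were called between Tau and WT mice, were here at -0.056 ± 0.119, -0.050 ± 0.143 and 0.12 ± 0.0757. With the term for sex, 7 of the 22 were called, 6 higher and 1 lower, and the log2 fold changes of Fos, Fosb, Junb and Btg2 were below 0. Against WT mice, UNC0642-treated Tau mice had 17 of the 22 called higher and 1, Btg2, lower, with a median of 0.64 and 7 past the adjusted threshold, or 3 without UNC0642 replicate 2 and 10 without either WT library.

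**Figure D4:**
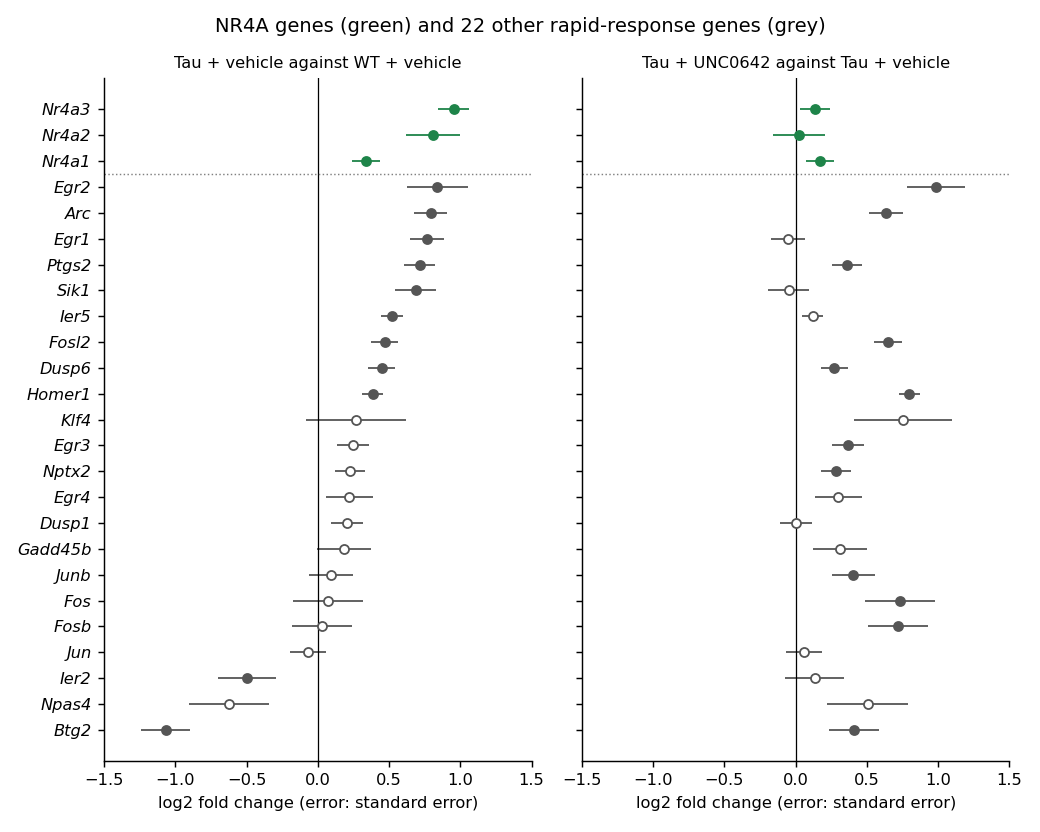
Log2 fold change (horizontal axes, points, with the SE as bars) of the 3 NR4A genes in green and 22 other rapid-response genes in grey, for Tau against WT (left) and UNC0642-treated against untreated Tau (right). Grey points are filled where the gene was called. The NR4A points lie at 0.34 to 0.95 on the left and at 0.023 to 0.17 on the right, where Egr2, Homer1 and Fos lie at 0.73 to 0.98.

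Of 18 genes that carry calcium, cAMP and growth factor signals to NR4A promoters, 1 was called in Tau against WT mice, with a median log2 fold change of 0.026 over the list. This was Crem, a CRE-binding gene that also gives rise to an inducible repressor. Crem was at 15.3 and 17.5 CPM in WT, 20.7 and 22.4 CPM in Tau, and 28.5 and 28.4 CPM in UNC0642 libraries, with no overlap between the groups. Its log2 fold changes were 0.39 ± 0.118 (SE; adjusted p = 0.273 by edgeR) from WT to Tau and 0.40 ± 0.117 (adjusted p = 0.417) from Tau to UNC0642. From WT to UNC0642 it was 0.79 ± 0.117 (adjusted p = 0.0295), and without the library labelled WT replicate 1 Crem was not called in Tau against WT mice, at 0.30. After UNC0642, Mef2d, an activity-dependent factor, and Prkaca, a catalytic subunit of protein kinase A, were called lower than in untreated Tau mice at -0.32 and -0.31. Crtc1, a CREB coactivator, and Mef2d were called lower than in WT mice at -0.36 and -0.28. Creb1 was not called in any comparison, with log2 fold changes of 0.047 to 0.18. Of the genes whose products UNC0642 inhibits, Ehmt1 was at 43.6 to 49.0 CPM and Ehmt2 at 131 to 161 CPM over all 6 libraries. The Ehmt2 means were 155 ± 3.11 CPM in WT, 145 ± 20.3 CPM in Tau and 154 ± 9.45 CPM in UNC0642 libraries (SD). By quantitative PCR, a different assay, the study reported more Ehmt2 mRNA in the PFC of Tau than of WT mice. By immunostaining of PFC neurons it also reported stronger EHMT2 and H3K9me2 signals in Tau mice, which RNA counts of bulk tissue do not measure.

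Of 12 retinoid X receptors and coregulators of NR4A receptors, none was called in Tau against WT mice, with a median of -0.031. Between the Tau groups none was called higher. Rxrg, which can pair with Nr4a1 and Nr4a2, was at 5.94 and 7.44 CPM in Tau and at 4.26 and 3.66 CPM in UNC0642 libraries, a log2 fold change of -0.75 ± 0.216 (SE; adjusted p = 0.415 by edgeR), and was called lower.

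Of 12 genes known as NR4A targets in other cells, 11 were tested, and 3 were called higher and 1 lower in Tau against WT mice, with a median log2 fold change of 0.23. Bdnf, the neurotrophin, was at 28.6 and 44.9 CPM in WT, 51.9 and 53.8 CPM in Tau, and 70.0 and 68.1 CPM in UNC0642 libraries. It had 0.52 ± 0.166 (SE; adjusted p = 0.299 by edgeR) in Tau against WT and 0.39 ± 0.165 (adjusted p = 0.547) in UNC0642 against Tau mice. Without the library labelled WT replicate 1 it was at 0.23 in Tau against WT mice and not called. Pdk4, which brakes glucose oxidation, and Aldh1a1, which makes retinoic acid, were called higher in Tau at 0.71 and 0.44, and neither was called without Tau replicate 2. After UNC0642, Aldh1a1 was called lower at -0.80 ± 0.138 (adjusted p = 0.144), as was the neurotrophic receptor gene Ret, at -0.64 ± 0.254 (adjusted p = 0.514). Th, the rate-limiting enzyme of dopamine synthesis and a classic Nr4a2 target, was at 27.6 CPM in the library labelled WT replicate 1 and at 1.07 to 2.65 CPM in the other libraries. It was called lower in Tau than in WT mice at -2.64 ± 0.954 (adjusted p = 0.33), a difference made by that library: without it the value was 0.87. Against WT mice, UNC0642-treated Tau mice had Bdnf and Vip called higher and Aldh1a1 and Th lower. The fall in Th was again made by the library labelled WT replicate 1: without it the value was 0.26.

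Other signals moved with the NR4A genes between WT and Tau mice. Of 11 clock, glucocorticoid and heat shock genes, which move with time of day and handling, 6 were called higher and 1 lower, with a median log2 fold change of 0.62. Tsc22d3, a glucocorticoid target, was at 67.5 and 60.5 CPM in WT, 124 and 137 CPM in Tau, and 116 and 137 CPM in UNC0642 libraries. Its log2 fold change was 1.02 ± 0.105 (SE; adjusted p = 0.00861 by edgeR) in Tau against WT mice. The clock gene Per2 was at 20.4 and 31.8 CPM in WT, 56.5 and 61.5 CPM in Tau, and 40.3 and 38.8 CPM in UNC0642 libraries, at 1.18 ± 0.169 (adjusted p = 0.0409). Between the Tau groups 5 of the 11, Per1, Per2, Ciart, Dbp and Nr1d1, were called lower after UNC0642, and Hspa1a and Hspa1b were called higher. The part of these signals in the NR4A levels was not tested.

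Markers of striatal projection neurons, which express Nr4a1 strongly, were called higher in Tau than in WT mice for 9 of 9 genes, with a median of 0.79. Their summed level was 177 to 191 CPM in WT, 215 and 397 CPM in Tau, and 188 and 194 CPM in UNC0642 libraries. Oligodendrocyte markers summed to 1386 to 2841 CPM in WT, 1954 and 5278 CPM in Tau, and 2020 to 2163 CPM in UNC0642 libraries, with 2 of 6 called higher in Tau mice. Without the library labelled WT replicate 1, 6 of 6 were. Tau replicate 2 was the high library for both lists. Without it the median log2 fold change in Tau against WT mice was 0.22 for the striatal and -0.14 for the oligodendrocyte markers. Those of Nr4a1, Nr4a2 and Nr4a3 were then 0.37, 0.69 and 0.98, with 1 Tau library left. The part of cell type make-up in the NR4A levels was not tested. Of 7 tested markers of claustrum and layer 6b neurons, where Nr4a2 is strong, none was called in Tau against WT mice, or 2 higher without the library labelled WT replicate 1, and their summed level was 236 to 306 CPM in WT, 257 to 276 CPM in Tau and 207 to 216 CPM in UNC0642 libraries. Between the Tau groups 8 of 9 striatal, 2 of 6 oligodendrocyte and 2 of 7 claustrum and layer 6b markers (Cplx3 and Synpr) were called lower after UNC0642 and none higher, with medians of -0.87, -0.82 and -0.35. Without Tau replicate 2, 1, 0 and 2 of these were called lower, and the medians were -0.16, 0.065 and -0.14. Endothelial markers were called lower in Tau mice for 4 of 5 genes, with sums of 159 to 171 CPM in WT against 114 to 122 CPM in Tau libraries. Markers of astrocytes and of microglia each had 1 gene called higher and none lower, Gfap and Tmem119. Tmem119 was at 16.2 CPM in the library labelled WT replicate 1, 21.5 CPM in WT replicate 2, and 24.9 and 25.7 CPM in Tau libraries. Without the library labelled WT replicate 1 the median log2 fold change of the microglia markers was 0.042, against 0.18 with it. Gfap was at 60.0 and 49.4 CPM in WT and at 55.3 and 112 CPM in Tau libraries. Only Tau replicate 2 was above both WT libraries. Meningeal fibroblast markers had 1 of 5 called, Slc6a13, and it was lower.

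The genes whose profile over the 6 libraries was nearest to the mean NR4A profile were then listed, by the root mean square difference of log2 CPM after each gene was centred on its own mean. Among 12088 genes of at least 5 CPM on average, the nearest was the kinase gene Dyrk3, at a distance of 0.0657. Dyrk3 was at 12.1 and 10.9 CPM in WT, 18.4 and 18.7 CPM in Tau, and 21.2 and 20.7 CPM in UNC0642 libraries. Next were Tiparp, Serinc2, Errfi1, Smarca5-ps, Nrp1, Gm13136, Sik1, Tent5a and Sntb2, at 0.0939 to 0.116. Smarca5-ps is a pseudogene whose reads are hard to assign. Of the 22 rapid-response genes, Sik1 was 8th, Ier5 22nd, Dusp6 47th, Ptgs2 57th and Egr1 101st, while Arc was 827th, Fos 4840th and Btg2 12013th. Taken singly, Nr4a1 was nearest to Shc4, Gm8355 and Dohh, Nr4a2 to Serinc2, Smarca5-ps and Arl4d, and Nr4a3 to Tsc22d3, Dyrk3 and Zfp189. Nr4a3 ranked 11th in likeness to Nr4a2, and Nr4a2 ranked 12th in likeness to Nr4a3. Nr4a1, whose profile was flatter, ranked 61st for Nr4a2 and 83rd for Nr4a3. In likeness to Nr4a1, however, Nr4a2 ranked only 5097th and Nr4a3 8016th. With 6 libraries in 3 groups, many genes share a profile by their group means alone, and these distances are a description.

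**Figure D5:**
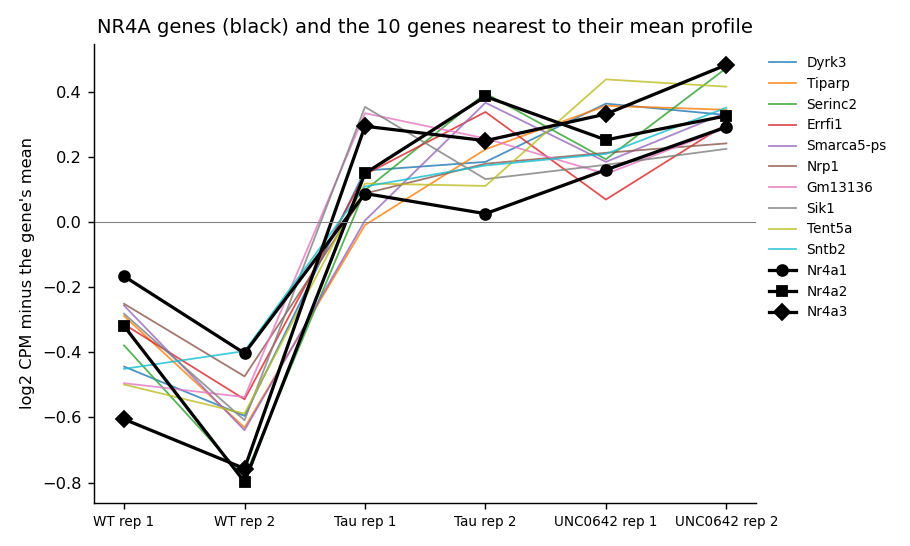
Log2 CPM of each gene minus its own mean (vertical axis) in the 6 libraries, with the NR4A genes in black and the 10 genes nearest to their mean profile in colour, and lines that only link the points of a gene. All lines lie below 0 in both WT libraries, and Nr4a1 spans the least of the 3 black lines.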

How the data were processed

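RNA of the PFC was sequenced in 6 libraries from different mice, 2 per group. As the labels and methods state, strand-specific libraries were made from ribosome-depleted total RNA, reads were trimmed with Cutadapt and aligned with TopHat2, and the authors counted reads per gene with featureCounts. The notes name mm10, SAMtools and edgeR without versions. The deposited values are raw counts per gene with no normalization, and the strand setting is not given in the sources used here. In 2 libraries, 26 gene symbols read as dates, and these genes were joined by position.

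Starting from the counts, edgeR 4.0.16 in R 4.3.3 was used: filterByExpr (minimum count 10, minimum total 15), TMM factors of 0.966 to 1.04, and a quasi-likelihood fit of all 6 libraries with a mean per group and 3 residual degrees of freedom. SEs and Benjamini-Hochberg adjusted p-values come from this fit over all genes, and SDs from 2 libraries. The biological coefficient of variation was 12.3%. The call rule was 1.2-fold or more with an unadjusted p under 0.05. Gene positions and exon lengths are from GENCODE M21, in which 53669 symbols matched a single gene, and promoter windows from RefSeq. Profiles used log2 CPM with a prior count of 2.

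Named are the 3 members, listed genes called in any comparison with a few others of each list, the 10 genes nearest to the family and the 3 nearest to each member, Xist, Ddx3y, Ehmt1, Ehmt2 and Mapt. Prnp was chosen after its values were seen. The members and gene lists were chosen with earlier results of these data known. Alternatives were DESeq2 1.42.0, limma-voom (limma 3.58.1), other scaling and filters, the compared groups alone, a replicate block, a term for sex, and each library left out. Same-numbered libraries are different mice and were not paired. The fits were tested on simulated data. The result of 1 listed gene is not reported here. Figures were drawn with matplotlib 3.10.9 in Python 3.11.15.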

Additional observations from a re-analysis of the deposited data

How the results depend on the processing

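The NR4A log2 fold changes differed from those reported by less than the spread between replicates with DESeq2 size factors, library size alone, no filter, a minimum of 10 counts per library, the DESeq2 fit, limma-voom and fits of the compared groups alone. With a term for sex they moved to 0.46 (Nr4a1) and 1.07 (Nr4a2) in Tau against WT, to -0.066, -0.45 and -0.014 (Nr4a1, Nr4a2 and Nr4a3) in UNC0642-treated against untreated Tau, and to 0.61 (Nr4a2) in UNC0642-treated Tau against WT mice. When each library was left out in turn, Tau against WT ranged from 0.23 to 0.46 for Nr4a1, 0.59 to 1.06 for Nr4a2 and 0.88 to 1.03 for Nr4a3. UNC0642-treated Tau against WT mice ranged from 0.40 to 0.63, 0.61 to 1.09 and 1.01 to 1.17, and the Tau groups from 0.10 to 0.23, -0.095 to 0.14 and 0.059 to 0.21. By adjusted p, 4, 1 and 7 of the other rapid-response genes were called in the 3 comparisons (Tau against WT, UNC0642-treated against untreated Tau, UNC0642-treated Tau against WT). For the upstream, partner and target genes these counts were 0, 0 and 1, against 5, 8 and 9 by unadjusted p, and for the other nuclear receptors 0, 0 and 0, against 6, 6 and 5. Leaving out 1 library gave 10 to 16, 8 to 14 and 15 to 19 rapid-response genes, 3 to 9, 5 to 9 and 4 to 11 upstream, partner and target genes, and 2 to 9, 4 to 6 and 2 to 5 nuclear receptors. By adjusted p it gave 0 to 6, 0 to 4 and 3 to 10 rapid-response genes. With the term for sex, 7 rapid-response genes were called between the Tau groups in place of 12, and their median log2 fold change was 0.10 in place of 0.36. The log2 fold changes of Fos, Fosb, Junb and Btg2 turned to -0.25, -0.027, -0.14 and -0.16 there, and that of Per2 to 0.060. Th turned to 0.88 in Tau against WT mice with that term. Without each library Th ranged from -3.57 to 0.87 in Tau against WT and from -4.18 to 0.26 in UNC0642-treated Tau against WT mice, and it was above 0 without the library labelled WT replicate 1 alone. The cause of the shifts with the sex term was not tested.

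Same-numbered libraries deviated from their group means with correlations of -0.034, -0.021 and -0.0033 between groups, so the replicate number does not pair them. With the replicate number as a block the log2 fold changes in Tau against WT mice were 0.34, 0.81 and 0.95, and the counts of called genes in the lists stayed within 1 of those reported. Over all genes, 2003, 1569 and 1932 were called in the 3 comparisons, and 1322, 1055 and 1397 by DESeq2. By adjusted p these counts were 32, 4 and 44, against 128, 67 and 231 by DESeq2, 17, 4 and 23 with the block, and 10, 38 and 143 with the term for sex. With 2 mice per group, small differences between the Tau groups could not be resolved.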
